A study of Arabidopsis thaliana with 30 samples.

Results

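A set of 48 Arabidopsis thaliana genes stood higher in seedlings given antimycin A (AA) for 3 h than in their mock controls, in both genotypes of the study. At 24 h their difference between AA and mock, as measured below, was under a set bound in both genotypes, which does not exclude a small rise. They were chosen by their measured levels with AA and mock medium from the 27655 genes of the deposited table, by a rule on scaled counts (CPM, a gene's read pairs times 1000000 over the library's total). The difference d was log2((AA mean + 1)/(mock mean + 1)), from group means of CPM. A member had a mean of at least 5 CPM in both 3 h AA groups, a d of at least 1 at 3 h in both genotypes, and a d below 0.3 at 24 h in both. Of 243 genes that met the conditions on the 3 h libraries, 48 met those on the 24 h libraries, 53 had a d of at least 1 at 24 h too in both genotypes (called here the genes raised at both times), and 142 were in neither class. The rule read the AA and mock libraries, so differences between AA and mock medium at either time are given below as a description, with no test.

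Poly(A) RNA of whole seedlings was sequenced in 30 libraries, 3 for each of 10 groups. Seedlings of ein2-5, a loss-of-function mutant of EIN2, and of the wild type Col-0 were 12 days old when they were covered with liquid Murashige and Skoog (MS) medium that held 20 µM AA, or with the same medium alone (MS, the mock treatment), and were taken after 3 h or 24 h. In each genotype, untreated seedlings, which the labels put at 0 h, formed a further group, and the labels name no other allele or transgene. The labels name the time point as the batch, so the difference between MS and untreated seedlings holds immersion, time and batch together, while AA and MS, and the genotypes, were compared at the same time. Nothing in the labels tells if the 3 replicates came from different plates or harvests, and every p-value below therefore reflects no more than the spread among the sequenced samples. Library totals, in read pairs divided by 1000000, ran from 21.2 to 32.6, with a median of 24.3.

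Antimycin A blocks complex III of the mitochondrial respiratory chain, and plants answer with retrograde signalling, in which a signal from the mitochondria changes the transcription of nuclear genes. Its best known target is AOX1A, the alternative oxidase, which lets electrons bypass the blocked complex. EIN2 is a membrane protein that carries the ethylene signal from the receptors in the endoplasmic reticulum toward the nucleus, and ein2 mutants do not respond to ethylene. Many plant genes for zinc finger and ERF transcription factors, calcium-binding proteins and hormone-modifying enzymes are known to be raised briefly after a disturbance such as touch, wounding or a change of medium.

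Libraries were checked against their labels by EIN2, which averaged between 38.6 and 46.8 CPM over the 5 ein2-5 groups and between 104 and 114 CPM over the 5 wild-type groups. AOX1A, no member, averaged 431 ± 12.3 CPM with AA and 60.8 ± 16.4 CPM with MS at 3 h in ein2-5, and 339 ± 37.3 CPM with AA and 56.8 ± 3.18 CPM with MS in wild type (SD, n = 3). At 24 h AOX1A still averaged 112 CPM with AA and 31.1 CPM with MS in ein2-5, and 134 CPM with AA and 34.7 CPM with MS in wild type, so it belongs to the genes raised at both times. The summed level of 4 root markers was lower with AA, between 39.2 and 45.4 CPM with AA and 51.4 and 56.8 CPM with MS at 3 h in ein2-5, and between 39.9 and 50.3 CPM with AA and 52.7 and 59.6 CPM with MS in wild type. At 24 h these ranges were 26.0 to 29.4 CPM with AA and 37.0 to 51.5 CPM with MS in ein2-5, and 27.1 to 29.8 CPM with AA and 54.3 to 57.9 CPM with MS in wild type. The sum of 3 leaf markers at 3 h was 29387 to 29627 CPM with AA and 23409 to 29622 CPM with MS in ein2-5, and 26012 to 29747 CPM with AA and 29606 to 31531 CPM with MS in wild type. At 24 h that sum was lower with AA without overlap, at 24778 to 25043 CPM with AA and 26341 to 30834 CPM with MS in ein2-5, and 25859 to 26999 CPM with AA and 29277 to 30329 CPM with MS in wild type. No marker of either list was at 0 in any group, and their part in the results below was not tested. In RNA of whole seedlings, fewer cells of a type and less RNA per cell cannot be told apart.

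At 3 h, d over the 48 members ran from 1.02 to 2.75 with a median of 1.37 in ein2-5, and from 1.03 to 3.01 with a median of 1.36 in wild type. At 24 h it ran from -1.01 to 0.29 with a median of -0.03 in ein2-5, and from -0.75 to 0.29 with a median of 0.13 in wild type. The median level over the members was 29.2 CPM with AA and 10.6 CPM with MS at 3 h in ein2-5, and 23.1 CPM with AA and 8.19 CPM with MS in wild type. At 24 h that median was 8.82 CPM with AA and 10.8 CPM with MS in ein2-5, and 9.12 CPM with AA and 8.98 CPM with MS in wild type. In both genotypes 47 of the 48 had a higher mean with AA at 3 h than with AA at 24 h. The exception was SIS (AT5G02020), a gene first described for salt tolerance, which was named after its values were seen. Both AA groups entered the rule, and the time points are also the batches. The share over all genes was not taken, so nothing is read from the count of 47. In all 48 members every AA library stood above every MS library at 3 h, in ein2-5, where 10.3% of all tested genes did so, and in wild type, where 15.0% did. Likewise edgeR called all 48 higher with AA at 3 h, against 6.62% of tested genes in ein2-5 (12.8% in either direction) and 6.20% in wild type (10.0%). The rule used this contrast, and nothing is read from these counts. All 48 were among the 21256 genes that passed the filter on low counts, which the rule's own minimum of 5 CPM made near certain.

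**Figure D1:**
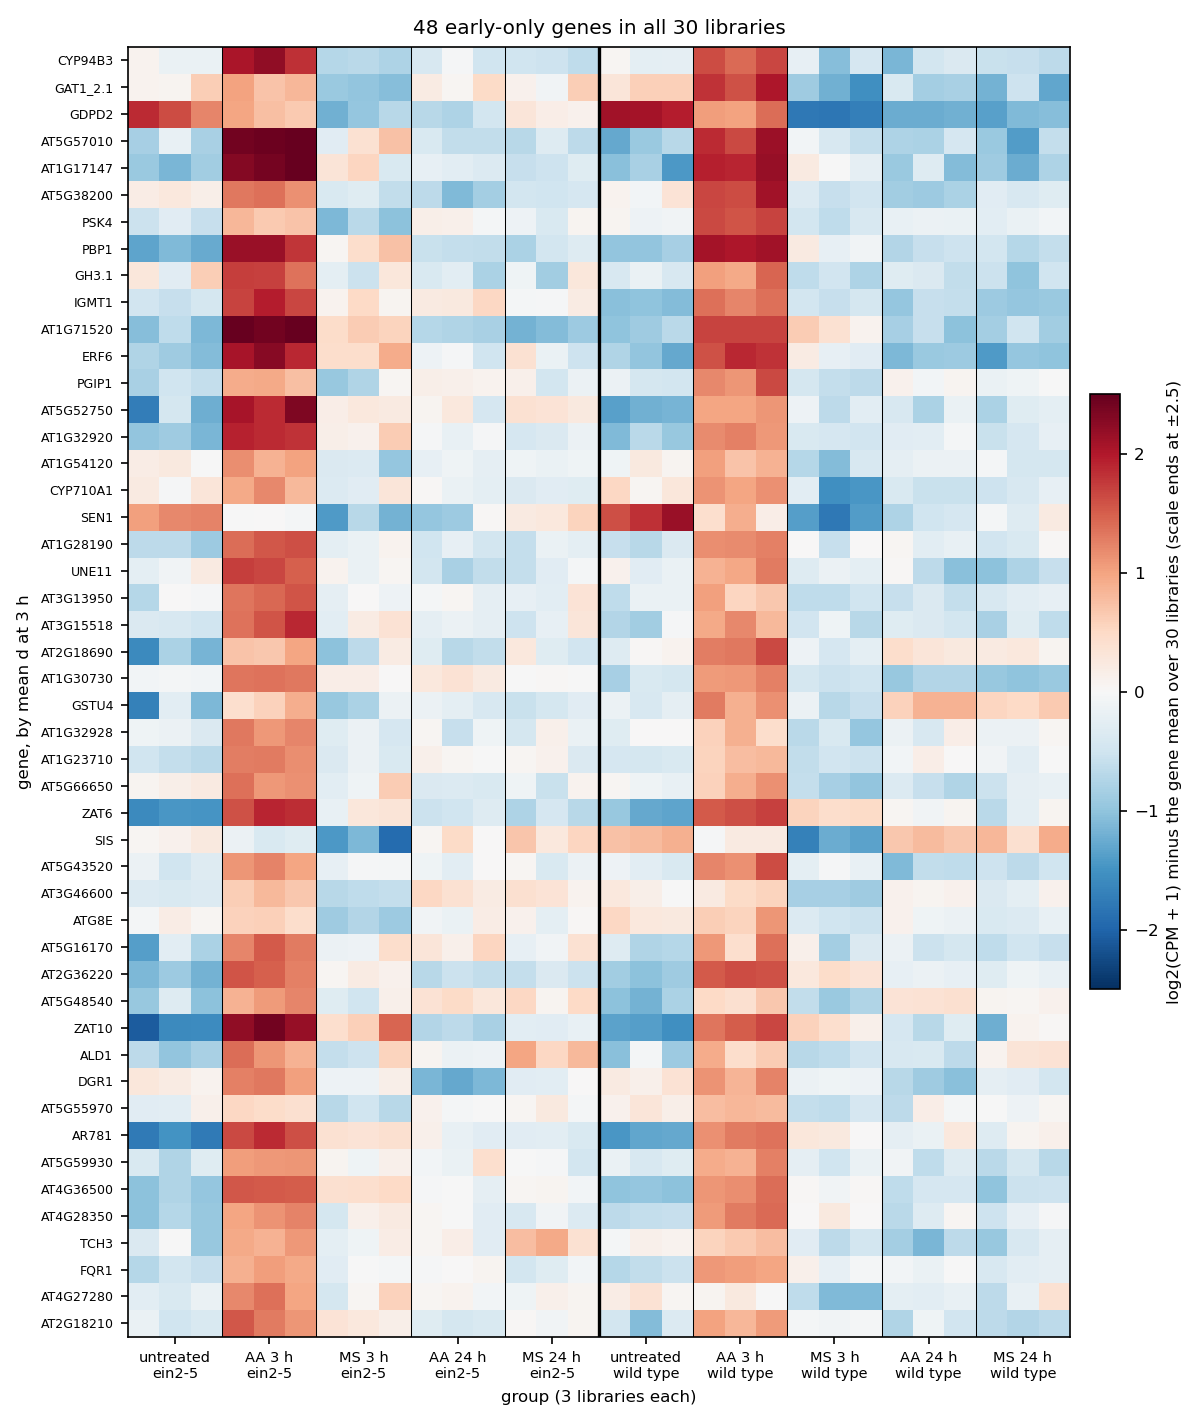
Heat map of the 48 members (rows, by mean d at 3 h) in the 30 libraries (columns, 3 per group, ein2-5 left of wild type), as log2(CPM + 1) minus the gene's mean over all libraries, with red above that mean and blue below it. The columns of AA at 3 h are red in nearly every row, while the untreated columns are split between blue rows such as ZAT10 and red rows such as GDPD2 and SEN1.

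The 3 members with the largest mean d at 3 h were CYP94B3, GAT1_2.1 and GDPD2. CYP94B3 (AT3G48520, chr3:17974853-17976774 on the minus strand) is a cytochrome P450 that hydroxylates jasmonoyl-isoleucine, the active jasmonate, and so takes it out of action. At 3 h it had 15.6, 17.8 and 13.4 CPM with AA and 1.48, 1.55 and 1.39 CPM with MS in ein2-5. In wild type at 3 h it had 11.6, 9.84 and 12.0 CPM with AA and 2.51, 0.940 and 2.04 CPM with MS. The groups lay far apart in both genotypes, with a d of 2.75 in ein2-5 and 2.102 in wild type, and the MS libraries were below the untreated ones in ein2-5. GAT1_2.1 (AT1G15040, chr1:5179887-5181402 on the minus strand) encodes a protein of the class I glutamine amidotransferase-like family. It had 19.9, 16.1 and 17.4 CPM with AA and 4.49, 4.25 and 4.00 CPM with MS at 3 h in ein2-5. In wild type it had 35.6, 30.5 and 41.3 CPM with AA and 4.60, 3.55 and 2.58 CPM with MS. The AA libraries of the wild type were higher than those of ein2-5, and d was 1.84 in ein2-5 and 3.01 in wild type. GDPD2 (AT5G41080, chr5:16441655-16444023 on the plus strand) is a glycerophosphodiester phosphodiesterase, an enzyme family that splits the head groups left when membrane phospholipids are broken down. It had 78.3, 66.4 and 61.9 CPM with AA and 16.5, 19.5 and 23.7 CPM with MS at 3 h in ein2-5. In wild type it had 81.7, 79.7 and 104 CPM with AA and 10.5, 10.5 and 11.2 CPM with MS. Within each genotype none of these libraries reached the untreated ones, which had 145, 124 and 92.0 CPM in ein2-5 and 170.0, 168 and 155 CPM in wild type.

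Upstream windows are shown for the members with the largest d whose 250 bases before the annotated gene start held a motif of those searched. They are read from the RefSeq assembly TAIR10.1 in the direction of the gene, so that the last base stands just before the start. Capitals mark a motif, which is TGTCTC, the auxin response element, in CYP94B3 (on the other strand). In GAT1_2.1 they mark TTGAC, the core of the W-box that WRKY factors bind, and TGACG, the as-1 core of TGA factors (on the other strand). In GDPD2 they mark GAANNTTC, a short heat shock element, and in PSK4 they mark TTGAC.
CYP94B3, chr3:17976775-17977024, minus strand: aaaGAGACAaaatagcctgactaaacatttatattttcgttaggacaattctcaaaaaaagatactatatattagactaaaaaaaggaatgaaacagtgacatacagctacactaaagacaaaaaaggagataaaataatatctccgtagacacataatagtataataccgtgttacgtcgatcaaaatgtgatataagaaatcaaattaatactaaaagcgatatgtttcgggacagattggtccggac
GAT1_2.1, chr1:5181403-5181652, minus strand: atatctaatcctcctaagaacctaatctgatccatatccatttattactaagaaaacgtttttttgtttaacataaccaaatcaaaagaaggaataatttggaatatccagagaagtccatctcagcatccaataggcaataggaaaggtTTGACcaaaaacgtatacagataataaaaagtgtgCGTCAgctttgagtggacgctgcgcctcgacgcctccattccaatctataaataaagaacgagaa
GDPD2, chr5:16441405-16441654, plus strand: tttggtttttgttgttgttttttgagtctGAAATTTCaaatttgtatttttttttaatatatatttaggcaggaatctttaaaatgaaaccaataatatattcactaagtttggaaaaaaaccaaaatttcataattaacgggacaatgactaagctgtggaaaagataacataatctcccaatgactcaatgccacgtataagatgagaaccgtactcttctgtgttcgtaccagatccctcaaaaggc
PSK4, chr3:18465068-18465317, plus strand: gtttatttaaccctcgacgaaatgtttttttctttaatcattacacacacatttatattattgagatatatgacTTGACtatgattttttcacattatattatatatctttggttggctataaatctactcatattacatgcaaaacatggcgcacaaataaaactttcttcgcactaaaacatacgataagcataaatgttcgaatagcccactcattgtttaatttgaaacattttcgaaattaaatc

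The signalling peptide gene PSK4 (AT3G49780) encodes a precursor of phytosulfokine, a sulfated peptide hormone that promotes growth and tempers immune responses. It had 51.5, 45.6 and 47.7 CPM with AA and 12.5, 17.6 and 13.4 CPM with MS at 3 h in ein2-5. In wild type it had 92.1, 87.4 and 93.8 CPM with AA and 20.6, 18.0 and 21.3 CPM with MS. The AA libraries of the wild type again stood clear above those of ein2-5. Among hormone genes, GH3.1 (AT2G14960), of the GH3 family of enzymes that join amino acids to auxin and other acids, was a low gene at 8.63, 8.52 and 6.47 CPM with AA and 1.44, 1.005 and 2.52 CPM with MS in ein2-5. Its wild-type libraries had 4.88, 4.62 and 6.96 CPM with AA and 0.863, 1.07 and 0.695 CPM with MS at 3 h. PBP1 (AT5G54490), a calcium-binding protein that binds the kinase PINOID, a regulator of auxin transport, had 20.4, 20.2 and 15.5 CPM with AA and 3.92, 5.49 and 6.91 CPM with MS in ein2-5. AT1G17147, annotated as a VQ motif protein, a family of partners of WRKY factors, had 23.2, 24.9 and 27.3 CPM with AA and 5.19, 6.22 and 2.83 CPM with MS in ein2-5. PBP1 lies within 2 coding genes of FQR1, another member.

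The transcription factors among the members were ERF6 (AT4G17490), an activator of the ethylene response factor family, the zinc finger proteins ZAT6 (AT5G04340) and ZAT10 (AT1G27730), which act in responses to salt, cold and oxidative stress, the AP2 domain gene AT1G71520, and AT3G46600 of the GRAS family. ERF6 had 44.6, 52.1 and 39.4 CPM with AA and 14.0, 13.9 and 19.8 CPM with MS at 3 h in ein2-5. In wild type ERF6 had 32.0, 39.8 and 37.5 CPM with AA and 11.7, 8.50 and 8.05 CPM with MS. The untreated ERF6 libraries were lower still, between 3.56 and 5.55 CPM in both genotypes together. ZAT10 had 61.1, 70.1 and 59.0 CPM with AA and 16.7, 19.2 and 35.6 CPM with MS in ein2-5 at 3 h. In wild type ZAT10 had 32.8, 37.0 and 41.2 CPM with AA and 18.7, 16.8 and 13.5 CPM with MS. Replicate 3 of ein2-5 with MS was far above the other two for ZAT10 and lay within the range of the wild-type AA libraries. The gene lists used here and below were written with earlier results of these data known. A member on a list, such as ZAT6 or ZAT10, had its call at 3 h made near certain by the rule, so the list counts are a description. Of 11 C2H2 zinc finger genes on such a list, 6 were called higher with AA at 3 h in ein2-5 and 7 in wild type. At 24 h 1 was called higher and 1 lower in ein2-5, and 1 higher in wild type. The list's median log2 fold change at 3 h was 1.47 in ein2-5 and 1.15 in wild type, against -0.01 over all genes in both. Of 20 tested ERF and DREB genes, 8 were called higher at 3 h in ein2-5 and 4 in wild type, and none lower. At 24 h 2 of these were called higher in ein2-5, and 2 higher and 1 lower in wild type. Of all tested genes 6.62% were called higher with AA at 3 h in ein2-5 and 6.20% in wild type. At 24 h 13.9% of all tested genes were called in either direction in ein2-5 and 13.0% in wild type.

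Some members are annotated as binding or moving calcium, or as binding calmodulin, and they are put together here by that annotation. TCH3 (AT2G41100), a calmodulin-like protein first found as raised by touch, had 180.3, 171 and 199 CPM with AA and 78.2, 85.9 and 105 CPM with MS at 3 h in ein2-5. In wild type it had 138, 146 and 160.0 CPM with AA and 76.1, 59.0 and 67.0 CPM with MS. It sat at the edge of the rule, with a d of 1.02 in ein2-5 and 1.12 in wild type. Read pairs that map to several places were shared among genes in part, and TCH3 had a fractional count in 63.3% of libraries. Its level thus includes some shared pairs, in an amount that was not measured. The EF-hand gene AT4G27280 had 49.5, 56.3 and 42.7 CPM with AA and 15.1, 21.6 and 31.5 CPM with MS in ein2-5 at 3 h. Its wild-type values were about as far apart but lower, 21.9, 24.9 and 20.7 CPM with AA and 13.2, 9.23 and 9.20 CPM with MS. AT5G57010, annotated as a calmodulin-binding protein, and AT5G66650, annotated in the calcium uniporter family, were also members. Of 15 touch and calcium genes on a list, 7 were called higher with AA at 3 h in each genotype, and their median log2 fold change was 0.30 in ein2-5 and 0.45 in wild type. At 24 h 1 was called higher and 1 lower in ein2-5, and 4 higher and 1 lower in wild type. The shares of all tested genes called higher at 3 h were 6.62% in ein2-5 and 6.20% in wild type. Those called in either direction at 24 h were 13.9% and 13.0%.

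Other members have known roles in defence and detoxification. PGIP1 (AT5G06860), which inhibits fungal polygalacturonases, had 189, 192 and 168 CPM with AA and 50.8, 58.5 and 103 CPM with MS at 3 h in ein2-5. In wild type PGIP1 had 230.5, 214 and 313 CPM with AA and 73.1, 65.6 and 62.9 CPM with MS. The quinone reductase FQR1 (AT5G54500), known as an early auxin-raised gene, had 241, 268 and 251 CPM with AA and 107, 129 and 126 CPM with MS in ein2-5. Per kilobase of exon, FQR1 at 206 CPM and PGIP1 at 186 CPM had the highest levels of the 48 with AA at 3 h, as means over both genotypes. IGMT1 (AT1G21100), a methyltransferase of indole glucosinolates, which are defence compounds, had 92.5, 113 and 91.9 CPM with AA and 30.1, 39.8 and 29.4 CPM with MS at 3 h in ein2-5. IGMT1 has close relatives and held a fractional count in 60.0% of libraries, so its values are uncertain by that sharing, to an extent that was not measured. GSTU4 (AT2G29460), a glutathione transferase, and CYP710A1 (AT2G34500), a sterol desaturase, had d values of 1.23 and 1.08 in ein2-5, against 1.57 and 2.04 in wild type. Genes of their wider lists were called at both times. Over all tested genes 6.62% were called higher at 3 h in ein2-5 (12.8% in either direction) and 6.20% in wild type (10.0%). At 24 h 13.9% of all tested genes were called in either direction in ein2-5 and 13.0% in wild type. Of 24 glutathione transferases 13 were called higher and 1 lower with AA at 3 h in ein2-5, and 14 higher and 1 lower in wild type. At 24 h 10 of them were called higher and 2 lower in ein2-5, and 9 higher and 1 lower in wild type. Of 19 detoxification genes 14 were called higher at 3 h in ein2-5 and 13 in wild type, and none lower. At 24 h 9 of these were called higher and 1 lower in ein2-5, and 6 higher and 2 lower in wild type. Of 21 jasmonate genes, CYP94B3 was the 1 called higher at 3 h in each genotype, while 2 were called lower in ein2-5 and 1 in wild type. Of 22 tested early auxin genes 13 were called higher and 2 lower at 3 h in ein2-5, and 11 higher and 2 lower in wild type. The list of 21 salicylic acid and immunity genes, with the member ALD1 described below, was mixed. At 3 h 3 of them were called higher and 3 lower in ein2-5, and 6 higher and 1 lower in wild type. Their median log2 fold change was -0.06 in ein2-5 and 0.69 in wild type. None of 14 mitochondrial dysfunction genes, the AOX1A group, was a member, and 12 of them were still called higher with AA at 24 h in ein2-5 and 13 in wild type. Of the members 9 stood on any of the 17 lists, 39 on none, and the products of 9 are annotated as uncharacterized or hypothetical.

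**Figure D2:**
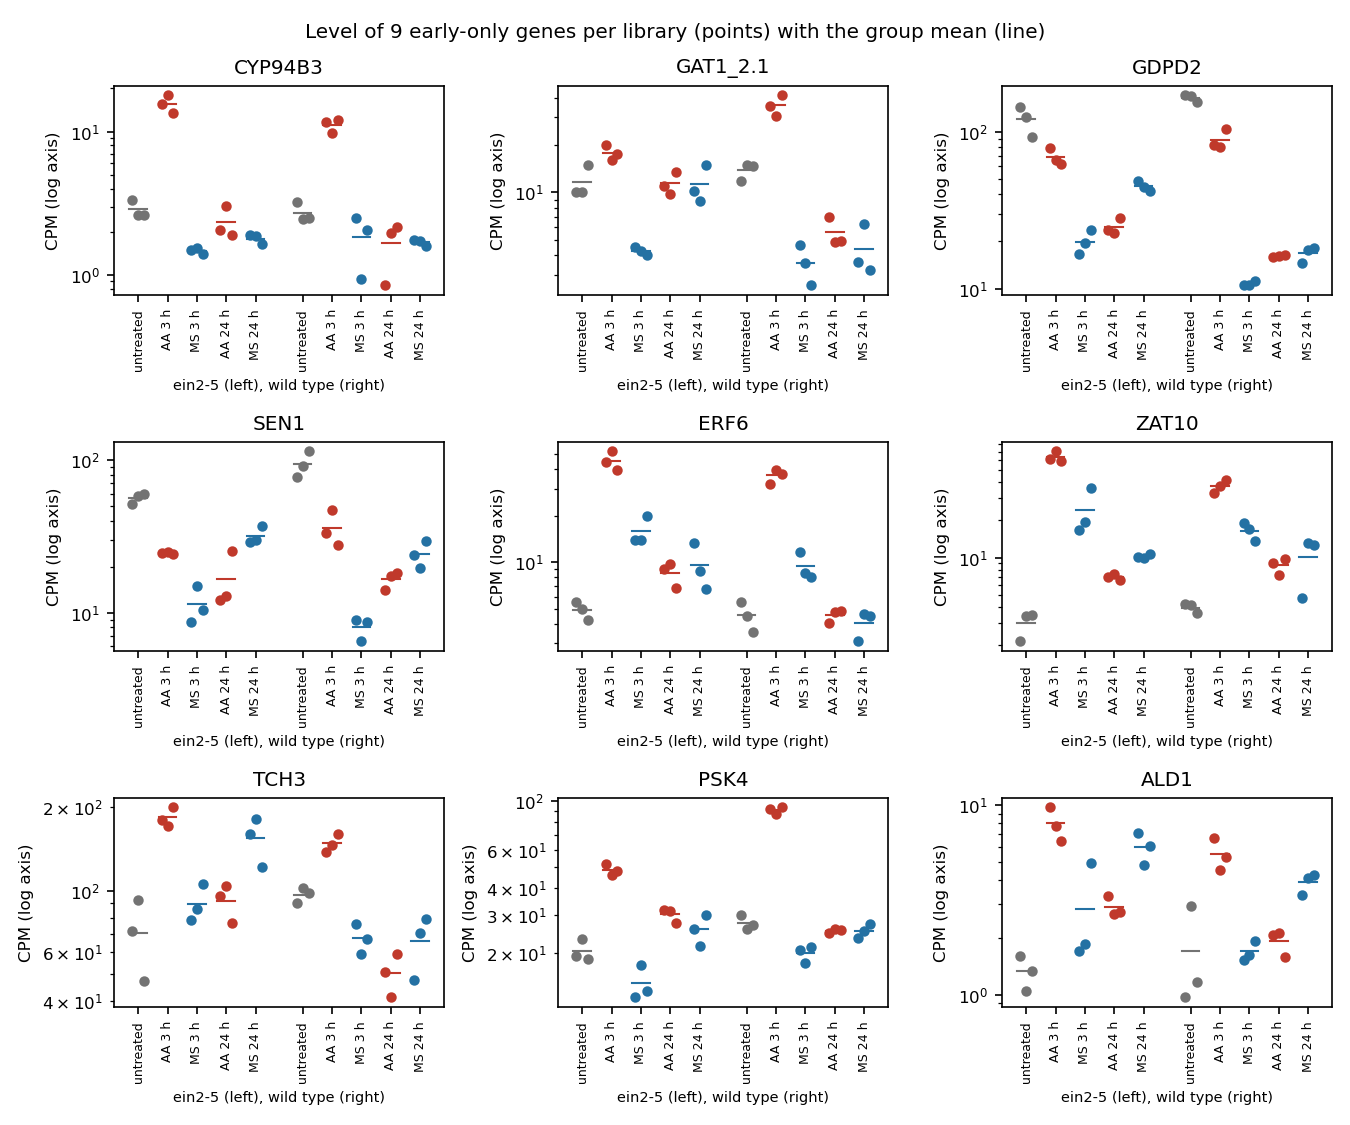
Level of 9 members in CPM (log axis) in each library (points) with the group mean (line), for untreated, AA and MS at 3 h, and AA and MS at 24 h, ein2-5 at left and wild type at right in each panel. AA at 3 h (red) stands above MS at 3 h (blue) in every panel, and GDPD2 and SEN1 also show untreated libraries (grey) above all others of the same genotype.

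At 24 h the rule set only an upper bound on d, so members could fall with AA, or rise a little, and stay in the set. Of the 48, 14 had a d below 0 in both genotypes, and 35 lay above -0.3 in both. FQR1, chosen after its values were seen, had 126, 132 and 136 CPM with AA and 94.2, 105 and 124 CPM with MS at 24 h in ein2-5. In wild type at 24 h FQR1 had 124, 115 and 129 CPM with AA and 98.6, 108 and 111 CPM with MS. Its AA libraries were thus the higher ones in both genotypes, though edgeR called it in neither. DGR1 (AT1G80240), a cell wall protein of the DUF642 family, had 10.3, 9.31 and 10.4 CPM with AA and 19.5, 19.9 and 24.3 CPM with MS at 24 h in ein2-5. In wild type at 24 h DGR1 had 14.5, 12.4 and 11.2 CPM with AA and 20.3, 19.4 and 17.2 CPM with MS, so the AA libraries were the lower ones in both genotypes. ALD1 (AT2G13810), the aminotransferase that starts the synthesis of the immune signal pipecolic acid, had 3.30, 2.66 and 2.74 CPM with AA and 7.10, 4.85 and 6.11 CPM with MS in ein2-5 at 24 h. In wild type ALD1 had 2.07, 2.11 and 1.57 CPM with AA and 3.36, 4.10 and 4.27 CPM with MS. For both genes the order of AA and MS at 24 h was the opposite of that at 3 h. The rule read these 24 h libraries too and barred larger positive differences, so nothing is read from the counts of calls that follow. By edgeR, 6 members were called lower with AA at 24 h in ein2-5, against 7.95% of all genes (13.9% in either direction), and 3 in wild type, against 6.50% (13.0%). The 6 were DGR1, ALD1, SEN1, TCH3, GDPD2 and AT5G38200, and the 3 were DGR1, ALD1 and AT5G38200, the last of the same family as GAT1_2.1.

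The rule's thresholds cut through a continuous range. By the level with AA at 3 h in the lower genotype, AT2G18210 at 5.25 CPM and AT5G59930 at 5.30 CPM lay just inside, and WRKY30 at 4.53 CPM and AT1G07160 at 4.23 CPM just outside. By the smaller d at 3 h, TCH3 at 1.02 and AT4G27280 at 1.03 lay just inside, and AT3G26760 at 0.995 and CEN2 at 0.97 just outside. By the larger d at 24 h, AT1G71520 and GAT1_2.1, both at 0.29, lay just inside, and AT5G20400 at 0.30 and PIRL2 at 0.32 just outside. AT1G71520 had under 0.7 CPM in every library at 24 h, so its d there carries little information.

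The untreated seedlings, which the rule did not read, set the 48 genes apart from each other. At 3 h 23 members were called higher with MS than in untreated seedlings and 11 lower in ein2-5, together 70.8% of the members, against 31.7% of all genes (17.3% higher, 14.4% lower). In wild type 16 were higher and 16 lower, 66.7% of the members, against 33.2% of all genes (15.8% higher, 17.4% lower). At 24 h 22 were higher and 4 lower in ein2-5, 54.2% against 15.0% of all genes (8.44% higher, 6.57% lower). In wild type at 24 h 12 were higher and 10 lower, 45.8% against 19.9% (8.78% higher, 11.1% lower). The shares are a description, since the MS libraries entered the rule, and the background includes genes below the rule's minimum of 5 CPM. In both genotypes 16 members, 33.3%, were called higher with MS at 3 h than untreated, against 10.8% of all genes and 8 of the 53 genes raised at both times, 15.1%. Another 10 members, 20.8%, were called lower in both, against 10.6% of all genes and 2 of the 53, 3.77%. These classes were formed after the values were seen, and the differences between them were not tested.

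In the first class, MS at 3 h lay above untreated, and AA, which the rule requires to exceed MS, lay higher still. ZAT10 had 2.15, 3.39 and 3.47 CPM in untreated ein2-5 and 4.23, 4.15 and 3.59 CPM in untreated wild type, so the AA, MS and untreated libraries at 3 h stood in 3 steps without overlap within each genotype. Relative to untreated, on the log2(CPM + 1) scale of group means, ZAT10 was 4.01 higher with AA and 2.63 higher with MS at 3 h in ein2-5, and 2.93 higher with AA and 1.80 higher with MS in wild type. By the difference between MS at 3 h and untreated, averaged over genotypes, the next members were AR781, ZAT6 and AT1G71520. AR781 (AT2G26530) is a protein of unknown function with a DUF1645 domain. It was 3.38 higher with AA and 2.04 higher with MS at 3 h in ein2-5, and 2.61 higher with AA and 1.52 higher with MS in wild type. ZAT6 was 3.29 higher with AA and 1.67 higher with MS in ein2-5, and 2.79 higher with AA and 1.67 higher with MS in wild type. ERF6, PBP1, IGMT1 and FQR1 belong to the same class.

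In the second class, MS at 3 h lay below untreated and AA lay nearer to untreated or above it. SEN1 (AT4G35770), a gene known to be raised in the dark and in senescent leaves, had 24.6, 24.8 and 24.0 CPM with AA, 8.65, 14.9 and 10.4 CPM with MS and 51.4, 57.7 and 59.3 CPM untreated in ein2-5. In wild type it had 33.2, 47.0 and 27.7 CPM with AA, 8.92, 6.50 and 8.71 CPM with MS and 77.2, 90.7 and 113 CPM untreated. So SEN1 was higher with AA than with MS, yet lower with AA than in untreated seedlings, in every library of both genotypes. The same order of means held for GDPD2 and SIS, and for no other member in both genotypes. GDPD2 on the log2(CPM + 1) scale was 0.79 below untreated with AA and 2.53 below with MS at 3 h in ein2-5, and 0.89 below with AA and 3.82 below with MS in wild type. At 24 h GDPD2 with AA was still 2.23 below untreated in ein2-5 and 3.27 below in wild type. ATG8E (AT2G45170), a ubiquitin-like protein of the autophagosome, had 71.4, 72.1 and 64.3 CPM with AA, 25.2, 28.3 and 24.7 CPM with MS and 45.9, 53.8 and 48.8 CPM untreated in ein2-5. ATG8E with AA thus lay above untreated and with MS below it, and it held a fractional count in 40.0% of libraries. GAT1_2.1, PSK4, AT5G38200, AT3G46600, AT1G54120 and AT5G55970, a RING finger protein, showed that pattern too in both genotypes.

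**Figure D3:**
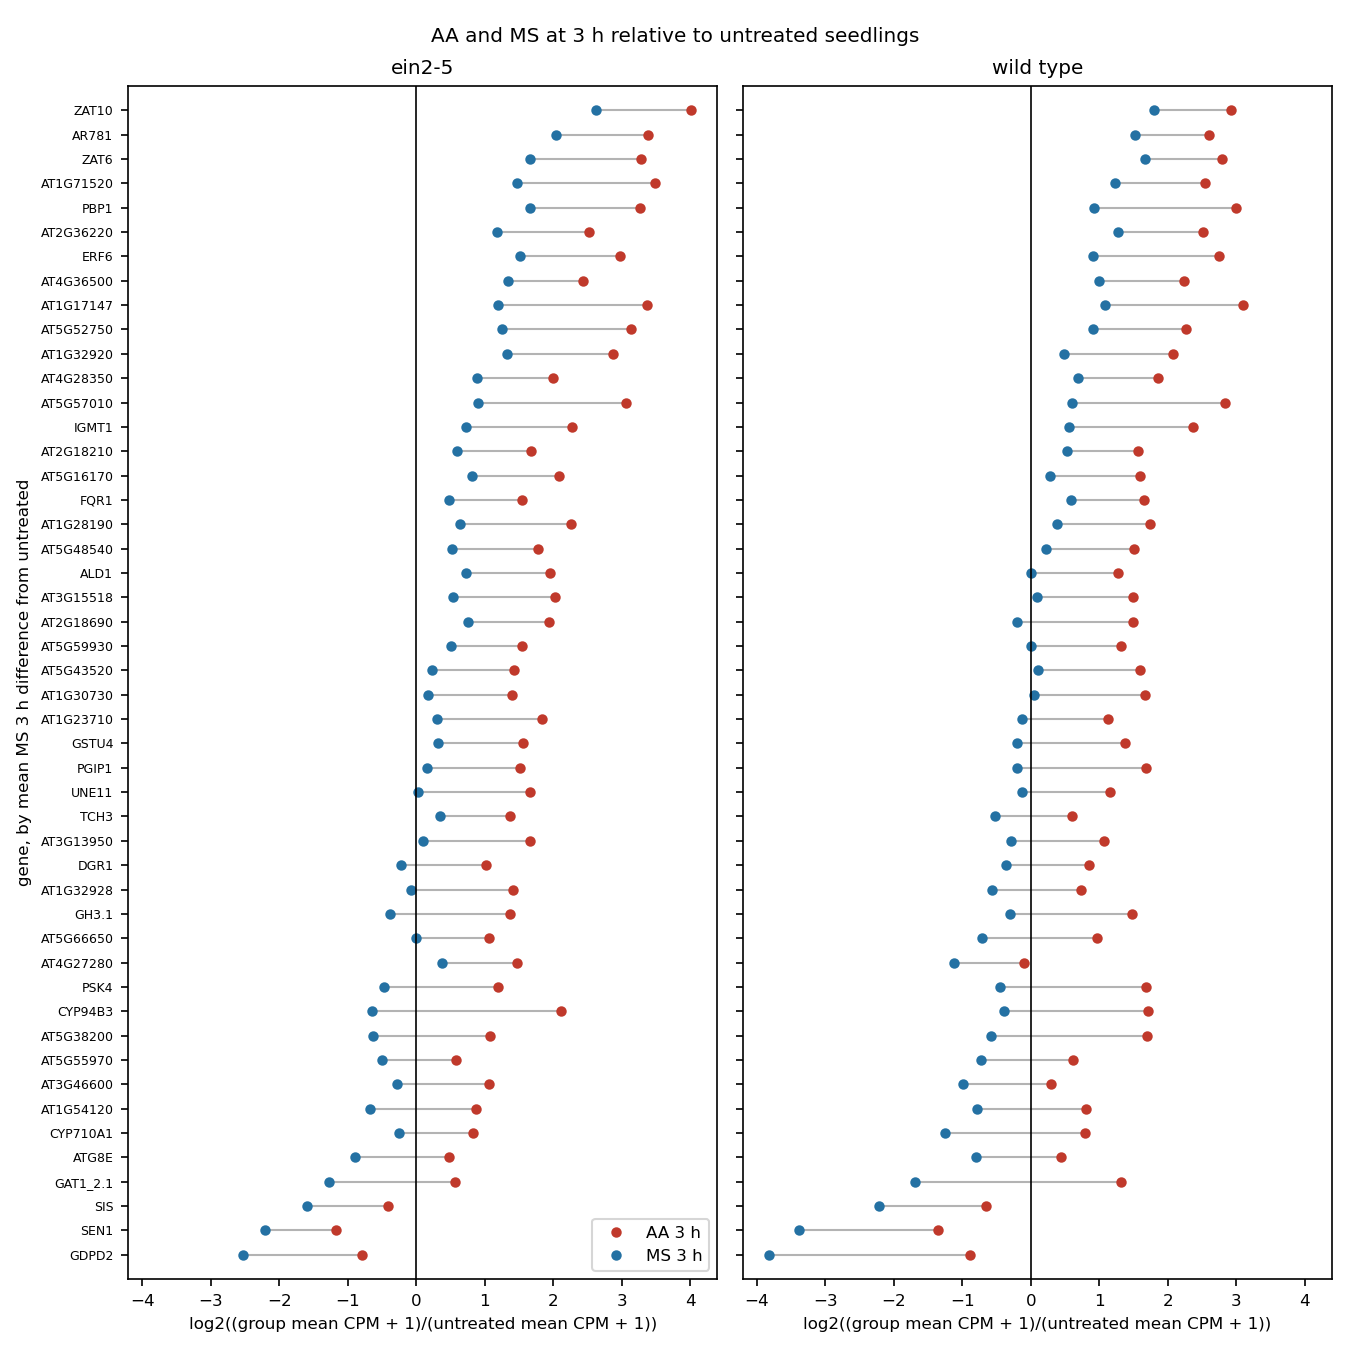
Level of each member with AA (red) and MS (blue) at 3 h relative to untreated seedlings, as log2 of the ratio of group means with 1 CPM added, ein2-5 at left and wild type at right, genes ordered by the MS difference. Red lies right of blue in every row, and the pair moves from left of the line at 0 (GDPD2, SEN1, SIS) to far right of it (ZAT10, AR781, ZAT6).

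Levels at 24 h did not all match the untreated ones. With AA at 24 h, 24 members were called higher and 7 lower than untreated in ein2-5, 64.6% against 26.2% of all genes (13.1% in each direction). In wild type 11 were higher and 14 lower, 52.1% against 30.9% of all genes (14.6% higher, 16.3% lower). These shares are a description as well, since the AA libraries at 24 h entered the rule. The median log2 fold change over the members was 0.43 in ein2-5, against -0.004 over all genes, and 0.03 in wild type, against 0.006. AT5G48540, annotated as related to receptor-like kinases, had 53.4, 57.8 and 50.5 CPM with AA at 24 h and 21.1, 33.1 and 19.8 CPM untreated in ein2-5. In wild type it had 52.5, 53.3 and 54.9 CPM with AA at 24 h and 19.8, 17.8 and 23.5 CPM untreated. With MS at 24 h it had 59.4, 43.2 and 59.0 CPM in ein2-5 and 43.7, 43.0 and 44.7 CPM in wild type. Every 24 h library of this gene, chosen here after its values were seen, thus lay above every untreated one of its genotype, with AA and with MS.

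The rule took no difference between genotypes, so ein2-5 was tested against wild type in each of the 5 conditions with edgeR's quasi-likelihood test and Benjamini-Hochberg adjustment over 21256 genes. The untreated libraries did not enter the rule, and the libraries of the other conditions did. In at least 1 condition 32 of the 48 members were called, 66.7%, against 24.7% of all genes and 32 of the 53 genes raised at both times, 60.4%. Of the members 23 (47.9%) were higher in ein2-5 in at least 1 condition, against 14.1% of all genes and 28 of the 53 (52.8%). Lower in at least 1 condition were 12 members (25.0%), against 11.8% of all genes and 6 of the 53 (11.3%). GAT1_2.1, GDPD2 and AT3G46600 were both, as were 1.21% of all genes. The background for all genes includes low genes that the rule's minimum of 5 CPM keeps out of the set.

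In untreated seedlings 3 of the 53 genes raised at both times were higher and 1 lower in ein2-5. Of the members 2 were higher and 6 lower, 16.7% against 4.33% of all genes (1.51% higher, 2.82% lower). The median log2 fold change was -0.10 over the 53, -0.22 over the members and -0.01 over all genes. The most changed was AT2G18690, an uncharacterized protein, with 8.35, 15.1 and 11.6 CPM in ein2-5 and 21.3, 27.7 and 28.7 CPM in wild type (log2 fold change -1.20 ± 0.22 SE, edgeR adjusted p = 0.00075). SIS had 9.47, 9.87 and 10.9 CPM in ein2-5 and 15.8, 16.4 and 17.6 CPM in wild type (log2 fold change -0.76 ± 0.18 SE, edgeR adjusted p = 0.00923). AT3G46600, the GRAS factor, fell by less, with 46.3, 44.8 and 46.3 CPM in ein2-5 and 70.5, 65.3 and 58.1 CPM in wild type (log2 fold change -0.54 ± 0.10 SE, edgeR adjusted p = 0.0012). The groups did not overlap for any of these genes. SEN1 (log2 fold change -0.78 ± 0.21 SE, edgeR adjusted p = 0.0228), GDPD2 (log2 fold change -0.49 ± 0.12 SE, edgeR adjusted p = 0.0139) and PSK4 (log2 fold change -0.47 ± 0.11 SE, edgeR adjusted p = 0.0106) were also lower in ein2-5. IGMT1 (log2 fold change 0.54 ± 0.12 SE, edgeR adjusted p = 0.00644) and AT1G30730 (log2 fold change 0.45 ± 0.10 SE, edgeR adjusted p = 0.00397), of the berberine bridge enzyme family of oxidases, were higher. The calls of SEN1, GDPD2, PSK4 and AT1G30730 were lost when a library was left out. For SEN1 these were wild-type replicate 3 and any of the ein2-5 replicates, with an adjusted p between 0.0508 and 0.15. Adjusted p-values without a library stand in brackets: for GDPD2 they were wild-type replicate 2 (0.0515) and ein2-5 replicate 3 (0.136), for PSK4 wild-type replicate 1 (0.0592) and ein2-5 replicates 1 (0.051) and 3 (0.0705), and for AT1G30730 wild-type replicate 1 (0.0583).

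With AA at 3 h 17 of the 53 genes raised at both times were called, all higher in ein2-5, with a median log2 fold change of 0.42. Of the members 13 were higher and 3 lower in ein2-5, 33.3% against 7.82% of all genes (4.86% higher, 2.95% lower). The median log2 fold change was 0.32 over the members and 0.002 over all genes. The count was 9 without ein2-5 replicate 2, 10 without wild-type replicate 1, and 26 when only the 6 libraries compared were fitted. PSK4, with the values given above, had the smallest adjusted p (log2 fold change -0.90 ± 0.11 SE, edgeR adjusted p = 7.21e-07). GAT1_2.1 (log2 fold change -0.99 ± 0.20 SE, edgeR adjusted p = 0.00138) and its relative AT5G38200 (log2 fold change -0.53 ± 0.11 SE, edgeR adjusted p = 0.00214) were the other members lower in ein2-5. AT4G27280 (log2 fold change 1.15 ± 0.19 SE, edgeR adjusted p = 0.000111) was more abundant in all 3 ein2-5 libraries than in any wild-type one. AT5G52750, annotated as a heavy metal transport protein, had 40.7, 35.5 and 50.0 CPM in ein2-5 and 19.1, 19.0 and 20.5 CPM in wild type (log2 fold change 1.13 ± 0.21 SE, edgeR adjusted p = 0.000628). AT1G32920, an uncharacterized protein, had 125, 119.7 and 114 CPM in ein2-5 and 73.8, 78.0 and 68.9 CPM in wild type (log2 fold change 0.71 ± 0.12 SE, edgeR adjusted p = 8.78e-05). AT3G13950, annotated as an ankyrin protein, rose by 0.74 ± 0.18 with an edgeR adjusted p of 0.00759, and by 0.64 with an adjusted p of 0.0624 without wild-type replicate 2. ZAT10 (log2 fold change 0.79 ± 0.21 SE, edgeR adjusted p = 0.0178) lost its call without wild-type replicate 1 (0.0919) or 2 (0.0557) or ein2-5 replicate 2 (0.0809). AT1G71520 (log2 fold change 0.97 ± 0.30 SE, edgeR adjusted p = 0.0376) lost it without any of the 6 libraries (adjusted p 0.0709 to 0.142). The other 7 higher members had log2 fold changes between 0.32 and 0.62, and their single calls were not followed without each library.

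With MS at 3 h 10 members were higher and 3 lower in ein2-5, 27.1% against 10.4% of all genes (5.87% higher, 4.55% lower). Of the 53 genes raised at both times 14 were called, all higher. The median log2 fold change was 0.28 over the members and 0.54 over the 53. AT5G66650 (log2 fold change 1.14 ± 0.23 SE, edgeR adjusted p = 0.00135), AT4G27280 (log2 fold change 1.04 ± 0.20 SE, edgeR adjusted p = 0.00086), GDPD2 (log2 fold change 0.82 ± 0.14 SE, edgeR adjusted p = 0.000199) and AT1G32920 (log2 fold change 0.70 ± 0.12 SE, edgeR adjusted p = 0.000253) were higher in ein2-5, and PSK4 (log2 fold change -0.52 ± 0.12 SE, edgeR adjusted p = 0.0029) was lower. Replicate 3 of ein2-5 in this group stood apart from the others for several members, with 4.96 CPM of ALD1 where the other two had 1.69 and 1.85 CPM. Without it 7 members were higher and 2 lower. Single calls were followed only for the most changed members, up to 6 per direction. Among these, without that replicate, the calls of CYP710A1 (edgeR adjusted p 0.0076 with all libraries, 0.0857 without it), ERF6 (0.0155, 0.128), ATG8E (0.00958, 0.0632) and AT2G36220, an uncharacterized protein (0.0384, 0.136), were lost. Those of CYP710A1, ERF6 and AT2G36220 were also lost without wild-type replicate 2 (0.082, 0.0783 and 0.215) or 3 (0.0826, 0.0983 and 0.104), and that of AT2G36220 without ein2-5 replicate 1 (0.0857). The number called was 8 without wild-type replicate 2 and 7 when only the 6 libraries compared were fitted. Without ein2-5 replicate 3 with MS at 3 h, the rule itself gave 52 members, 46 of them among the 48, and 18 members were higher and 12 lower with MS at 3 h than untreated in ein2-5.

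At 24 h with AA 8 members were higher and 5 lower in ein2-5, 27.1% against 9.91% of all genes (5.50% higher, 4.41% lower). With MS 10 were higher and 2 lower, 25% against 11.4% of all genes (6.74% higher, 4.65% lower). Of the 53 genes raised at both times 3 were higher and 4 lower with AA, and 7 higher and 1 lower with MS. AT1G30730 had 28.8, 31.0 and 28.2 CPM with AA in ein2-5 and 11.9, 14.0 and 13.9 CPM in wild type (log2 fold change 1.12 ± 0.10 SE, edgeR adjusted p = 1.48e-09). With MS it had 23.9, 24.3 and 23.6 CPM in ein2-5 and 12.0, 11.3 and 12.1 CPM in wild type (log2 fold change 0.98 ± 0.10 SE, edgeR adjusted p = 1.94e-08). It was thus more than one doubling higher in ein2-5 with AA. TCH3 had 160.2, 181 and 122 CPM with MS in ein2-5 and 47.8, 70.5 and 79.1 CPM in wild type (log2 fold change 1.20 ± 0.18 SE, edgeR adjusted p = 2.1e-05), and with AA the difference was smaller (log2 fold change 0.85 ± 0.18 SE, edgeR adjusted p = 0.00188). ERF6 was higher in ein2-5 with AA (log2 fold change 0.88 ± 0.21 SE, edgeR adjusted p = 0.0042) and with MS (log2 fold change 1.20 ± 0.21 SE, edgeR adjusted p = 0.000135). GSTU4 was lower in ein2-5, with 7.10, 6.52 and 5.81 CPM with AA in ein2-5 and 12.3, 15.4 and 15.4 CPM in wild type (log2 fold change -1.17 ± 0.24 SE, edgeR adjusted p = 0.00129), and with MS likewise (log2 fold change -1.13 ± 0.25 SE, edgeR adjusted p = 0.00188). AT2G18690 (log2 fold change -0.92 ± 0.21 SE, edgeR adjusted p = 0.00343) and AT2G36220 (log2 fold change -0.48 ± 0.10 SE, edgeR adjusted p = 0.00212) were lower with AA, and AT5G43520 (log2 fold change 0.78 ± 0.17 SE, edgeR adjusted p = 0.00272), of the C1 domain family, was higher. AT2G18210, uncharacterized, was higher with MS (log2 fold change 1.099 ± 0.28 SE, edgeR adjusted p = 0.0087). With AA, SIS (log2 fold change -0.58) lost its call without any one of the wild-type replicates or ein2-5 replicate 1 or 3 (0.0361 with all libraries, 0.0686 to 0.158 without one). ZAT6 (-0.53) lost it without wild-type replicate 1 or 3 or ein2-5 replicate 1 or 2 (0.0309 with all, 0.0928 to 0.115 without one). With MS, AT2G36220 (-0.35) lost it without wild-type replicate 2 or 3 or ein2-5 replicate 1 or 3 (0.0224 with all, 0.0654 to 0.141 without one).

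A few members kept or turned the sign of their genotype difference across conditions. IGMT1 was higher in ein2-5 in all 5, as 0.419% of all genes and none of the 53 genes raised at both times were. Its log2 fold changes were 0.54 untreated, 0.47 with AA and 0.69 with MS at 3 h, and 1.06 with AA and 1.01 with MS at 24 h. PSK4 was lower in ein2-5 untreated (-0.47) and with AA (-0.90) and MS (-0.52) at 3 h, and was not called at 24 h. GAT1_2.1 was lower in ein2-5 with AA at 3 h (-0.99) and higher with AA (1.03) and MS (1.34) at 24 h. AT3G46600 was lower in ein2-5 untreated (-0.54) and higher with MS at 24 h (0.40). GDPD2 was lower untreated (-0.49) and higher with MS at 3 h (0.82) and with AA (0.60) and MS (1.38) at 24 h. At 24 h with MS, GDPD2 had 48.5, 44.1 and 42.0 CPM in ein2-5 and 14.6, 17.6 and 18.2 CPM in wild type (log2 fold change 1.38 ± 0.13 SE, edgeR adjusted p = 8.59e-09). Whether a genotype difference itself changed from one condition to another was tested only for AA against MS at 3 h, a contrast whose terms entered the rule, where GDPD2 was the 1 member called, against 0.0706% of all genes.

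**Figure D4:**
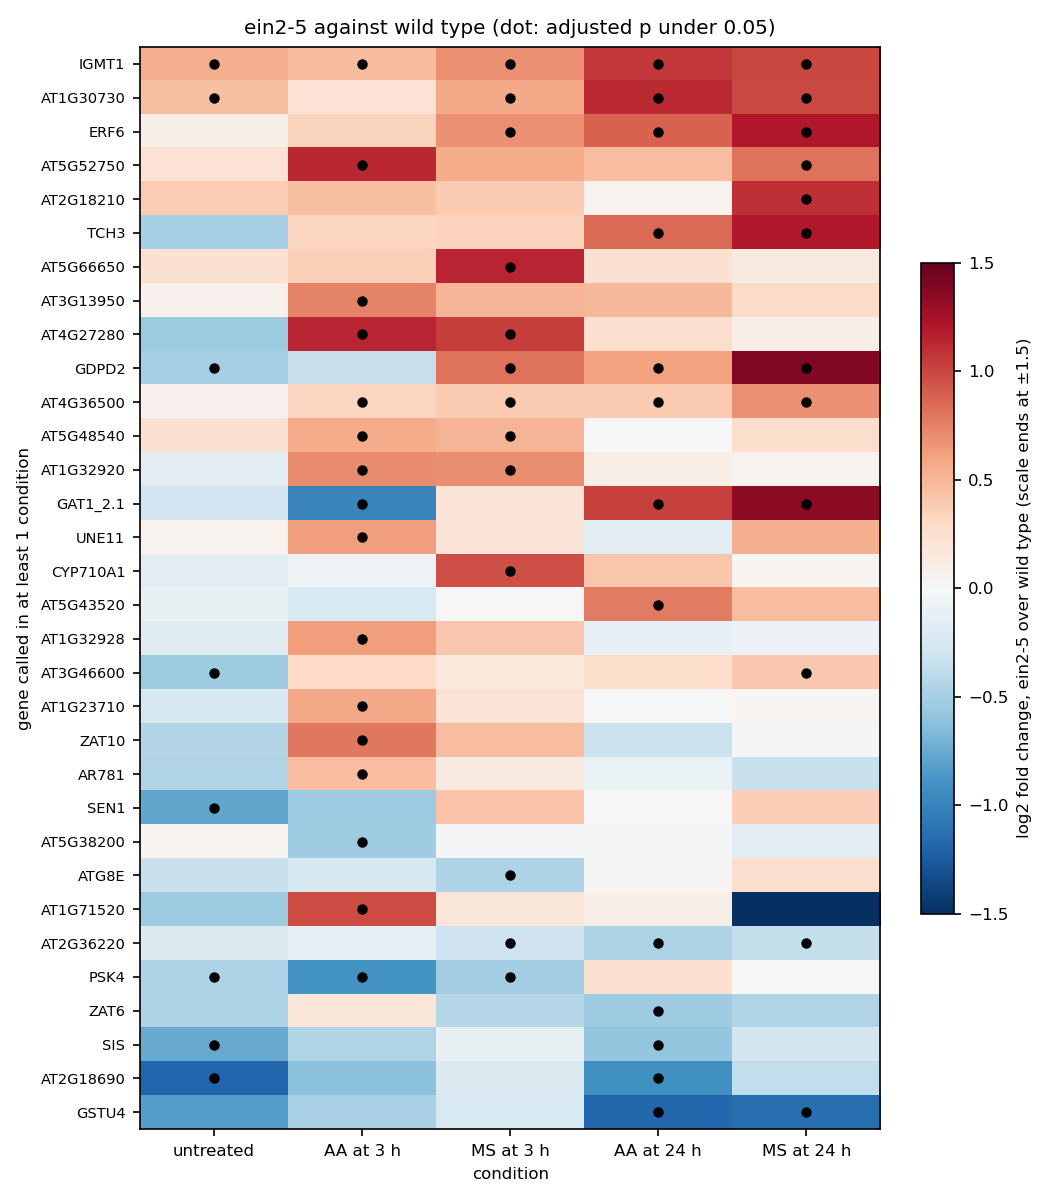
Log2 fold change of ein2-5 over wild type (red higher in ein2-5, blue lower, color scale ending at 1.5 in each direction) for the 32 members called in at least 1 of the 5 conditions, with a dot where the adjusted p was under 0.05. IGMT1 has a dot in every column, and GAT1_2.1, GDPD2 and AT3G46600, among other rows, change color between columns. The strong blue of AT1G71520 with MS at 24 h rests on levels under 0.7 CPM and was not called.

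Upstream windows of the 48 members were searched for 8 motifs on either strand, over the 250 bases before the annotated start, beside the windows of 27443 genes of the table. The letters CGCG, the core of the element bound by calmodulin-binding CAMTA factors, were present in 12 of 48 member windows, 25.0%, against 5 of the 53 genes raised at both times, 9.43%, and 10.1% of all genes. The W-box core TTGAC was present in 52.1% of member windows, 75.5% of windows of genes raised at both times and 44.9% of all windows. The mitochondrial dysfunction motif, which ANAC013 and ANAC017 bind, was in 0 of 48 member windows, 10 of the 53 (18.9%) and 0.740% of all. The as-1 core TGACG stood in 18.8% of member windows, 32.1% of those raised at both times and 18.6% of all, and GAANNTTC in 12.5% of member windows, 9 of the 53 and 9.55% of all. The G-box CACGTG, the GCC-box GCCGCC and the auxin response element TGTCTC were each in 2 member windows (4.17%), against 6.49%, 1.87% and 10.9% of all. In windows of genes raised at both times these 3 stood at 11.3%, 5.66% and 13.2%. All 8 motifs were chosen with earlier results of these data known. TTGAC and TGACG overlap where they occur as TTGACG. A match in a window is a description of the sequence and not a binding site.

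Windows of 3 of the 12 genes are printed, chosen after their values were seen, because AT1G32920 and AT1G32928 are neighbours that both meet the rule and PGIP1 is among the most abundant members. Capitals mark CGCG and TTGAC (on either strand). In AT1G32928, annotated as an Avr9/Cf-9 rapidly elicited protein, CGCG stands 74 and 60 bases before the start, and in AT1G32920 and PGIP1 it stands 95 and 163 bases before it.
AT1G32920, chr1:11928507-11928756, plus strand: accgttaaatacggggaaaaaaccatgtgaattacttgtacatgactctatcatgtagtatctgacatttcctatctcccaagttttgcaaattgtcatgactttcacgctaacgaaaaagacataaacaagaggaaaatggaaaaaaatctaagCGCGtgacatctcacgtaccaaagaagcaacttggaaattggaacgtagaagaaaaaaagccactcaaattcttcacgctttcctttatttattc
AT1G32928, chr1:11930899-11931148, plus strand: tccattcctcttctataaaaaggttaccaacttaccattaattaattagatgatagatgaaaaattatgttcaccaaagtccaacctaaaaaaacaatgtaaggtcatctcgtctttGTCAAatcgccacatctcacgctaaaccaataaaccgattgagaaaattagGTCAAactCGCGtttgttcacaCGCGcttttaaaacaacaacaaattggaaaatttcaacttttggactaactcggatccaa
PGIP1, chr5:2132100-2132349, plus strand: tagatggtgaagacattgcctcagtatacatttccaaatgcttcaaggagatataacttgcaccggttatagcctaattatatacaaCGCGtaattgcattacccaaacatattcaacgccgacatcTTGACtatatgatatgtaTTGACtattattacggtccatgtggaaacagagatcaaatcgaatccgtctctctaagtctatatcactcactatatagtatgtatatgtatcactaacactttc
AT1G32928 had 15.8, 13.3 and 14.8 CPM with AA and 4.49, 5.10 and 4.09 CPM with MS at 3 h in ein2-5, and AT1G32920 had 125, 119.7 and 114 CPM with AA and 35.9, 34.9 and 50.7 CPM with MS. Both were thus raised in neighbouring positions of chromosome 1.

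**Figure D5:**
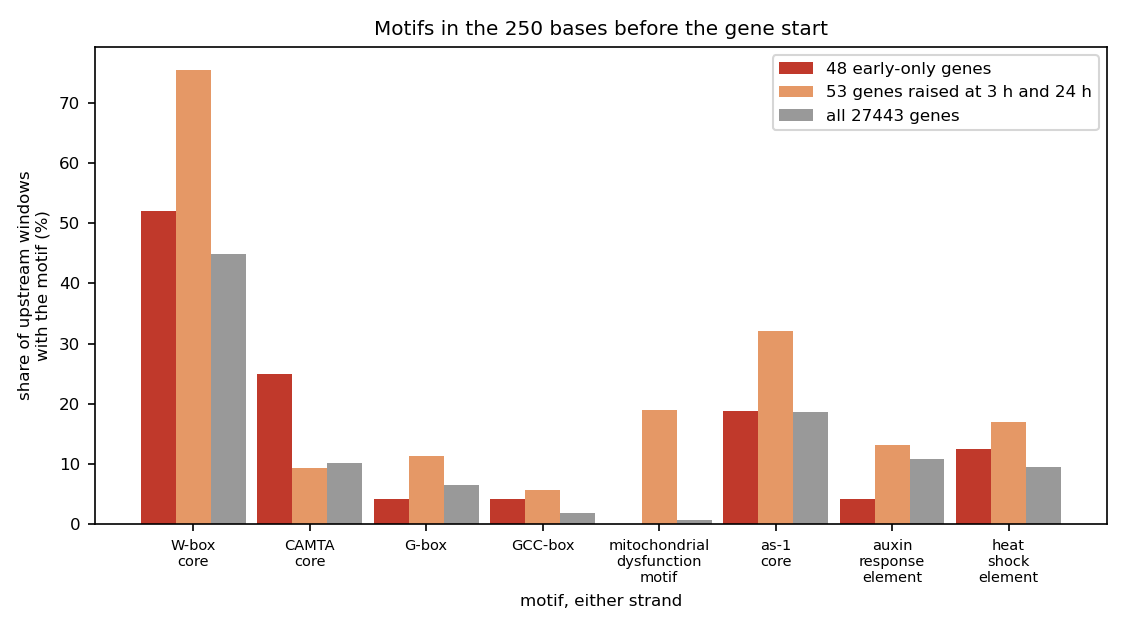
Share of upstream windows (percent, 250 bases before the gene start, either strand) that hold each of 8 motifs, for the 48 members, the 53 genes raised at both times and all 27443 genes. The members' bar for the CAMTA core (CGCG) is the tallest of its 3 at 25.0%. For the mitochondrial dysfunction motif the bar of genes raised at both times is at 18.9%, while the members at 0 and all genes at 0.740% lie close together.

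The members were spread over the genome, with 12, 10, 5, 6 and 15 on chromosomes 1 to 5. Of the 48, 6 overlap another gene of the table (GAT1_2.1, AT3G15518, SIS, AT3G46600, AT2G36220 and TCH3), and read pairs were counted without strand, so pairs from an overlapping gene on the other strand could not be told apart.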

How the data were processed

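Poly(A) RNA of 30 seedling libraries had been sequenced in read pairs. The authors deposited expected counts of 27655 genes by 30 libraries, made with featureCounts 2.0.3 per the file headers, without strand and with pairs that map to several places shared in part; 6.31% of the values were not whole. The submitters' processing notes also name HISAT2, SAMtools, DESeq, DESeq2 and the build TAIR10, and the annotation is release 57 per the file headers. The design had assumed whole counts, so the fractional counts were rounded before testing.

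CPM and d used the unrounded values. Genes were kept by filterByExpr (minimum count 10, 21256 genes) and scaled by TMM factors (0.958 to 1.058). A model with 10 group means over the 30 libraries was fitted in edgeR 4.0.16 (R 4.3.3), with a common biological variation of 11.16% and 9.35 prior degrees of freedom, and 16 contrasts were tested with its quasi-likelihood F test. A gene was called at a Benjamini-Hochberg adjusted p under 0.05 over all genes of a contrast. The test of ein2-5 against wild type untreated was checked on simulated counts with the same biological variation for every gene. It recovered 64.2% of planted 1.5-fold changes, 98.5% of 2-fold and 100% of 4-fold ones, and 5.41% of its calls were false. A member that was not called may thus still differ by a small amount. DESeq2 1.42.0 was an alternative, with other scalings, no filter, a stricter threshold, only the libraries compared, replicate number as a block, and leaving out each library. Library totals set the precision of low genes. Replicate numbers did not pair the samples.

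Members, the 17 gene lists (299 places) and the 8 motifs were chosen with earlier results of these data known. Genes were named by rule: the members with the largest d (12) and highest level (6), list members, the most changed per genotype contrast (up to 6 per direction) and per contrast of MS with untreated (up to 4 per direction), and those beside a threshold; others are said to have been chosen after their values were seen or are named as members of a counted class. Positions, annotations and sequences come from RefSeq's TAIR10.1 assembly, to which 27445 identifiers matched by locus.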

Additional observations from a re-analysis of the deposited data

Results flagged for a closer look

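GDPD2 differed between genotypes in its response to AA at 3 h. The AA effect in ein2-5 minus that in wild type was -1.16 (log2, SE 0.19, edgeR), and every ein2-5 library with MS at 3 h stood above every wild-type one, with 16.5, 19.5 and 23.7 CPM in ein2-5 and 10.5, 10.5 and 11.2 CPM in wild type. Both terms of this difference entered the rule that chose the member, so it is given as a value. Without wild-type MS 3 h replicate 1, 2 members were called in this contrast.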

How the results depend on the processing

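All 48 members were called higher with AA at 3 h in both genotypes under every alternative run. The rule chose the members by this contrast, so nothing is read from that count. At an adjusted p under 0.01, 5 members were called between genotypes untreated and 9 with AA at 3 h. When only the libraries compared were fitted, 26 were called between genotypes with AA at 3 h, 7 with MS at 3 h, and 5 in wild type for AA against MS at 24 h. Leaving out a library gave 9 to 14 for the genotypes with AA at 3 h, 8 to 14 with MS at 3 h, 2 to 5 in wild type for AA against MS at 24 h (5 without MS replicate 1), and 1 to 2 for the difference of AA effects at 3 h. The cause was not tested, apart from the fewer samples and the stricter threshold that these alternatives set. The rule gave 12 members at a d of at least 1.5 at 3 h, 43 with 0.5 CPM added in d (39 shared with the 48), 48 with 2 CPM added (41 shared), 54 with TMM library sizes (48 shared), 35 with d also above -0.3 at 24 h, 37 at a minimum of 10 CPM, and 41 to 53 when a library was left out. Of 45 followed genotype calls, 14 were lost without at least 1 library, 10 at 0.01, 8 with only the libraries compared and 1 with DESeq2 (SEN1 untreated, adjusted p 0.0511). No result reversed. Levels near 1 CPM rest on few read pairs.

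Libraries with the same replicate number were no more alike across groups (mean correlation of deviations -0.004) than others (0.002). With replicate number as a block, 15 members were called between genotypes with AA at 3 h, 4 in wild type for AA against MS at 24 h and 33 in wild type for MS against untreated at 3 h; the other counts were as without the block, and none of the followed calls was lost.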
